A study of Mus musculus with 12 samples.

Results

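Genes for 9 transcription factors of the hepatocyte lineage were followed through hepatocyte isolation and culture: Hnf4a, Foxa1, Foxa2, Foxa3, Cebpa, Onecut1, Onecut2, Nr5a2 and Prox1. They were chosen by name as regulators of liver identity, with earlier results of these data known. All 9 are among the 32285 genes of the matrices. The measurements came from single-nucleus RNA sequencing of 24 samples, 3 from each of 8 mice: liver tissue (Liver, L), cells directly after collagenase perfusion (Cell Suspension, CS) and hepatocytes kept for 24 hours on collagen (Primary Hepatocytes, PH). The mice were young adult, chow-fed, wild-type males without a treatment. PH cells, unlike Liver and CS, were kept in medium with dexamethasone and insulin and were detached with trypsin. The labels name the strain C57BL6J, whereas the methods text names C57BL/6NTac. A piece of the median lobe was frozen as Liver after the blood had been washed out by a first perfusion and before collagenase entered the rest of the same liver, so Cell Suspension and Primary Hepatocytes hold other tissue than Liver. The nuclei were marked with hashtags and mixed in 6 pools of 4 samples, and only pools 2 and 5 held both Liver and PH samples. Nothing besides the mouse and the pool describes how replicates relate, so p-values measure the spread between these samples.

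These factors work as a network that switches on and maintains the genes of the adult hepatocyte. Hnf4a encodes a nuclear receptor that drives a large share of hepatocyte genes. The FOXA proteins are forkhead factors that open chromatin in the early liver, and C/EBPα, from Cebpa, is a basic leucine zipper factor of metabolic genes. Onecut1 (also called HNF6) and Onecut2 encode cut-homeodomain proteins of hepatocytes and bile ducts, Nr5a2 encodes LRH-1, a nuclear receptor of bile acid and lipid genes, and Prox1 encodes a homeodomain factor of hepatocytes and lymphatic endothelium. Cultured hepatocytes are known to lose part of their differentiated state.

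The table of nuclei held 53467 nuclei, of which 44788 were hepatocyte nuclei (15166 in Liver, 13339 in CS and 16283 in PH). Their unique molecular identifiers (UMIs), each of which stands for 1 captured RNA molecule, summed to 6872031–29023569 per Liver sample, 2104087–17452582 per CS sample and 9852007–21226254 per PH sample. Of 53128 distinct barcodes, 337 occurred in more than 1 pool. The clusters named hepatocytes or isolated hepatocytes held 8942–20764 CPM (UMIs per 1000000 UMIs of the sum) of 10 hepatocyte markers together. The 5 cultured clusters taken as hepatocytes held 3597–9937 CPM of these markers, overlapping the 2881–3756 CPM of the endothelial clusters, but only 139–507 CPM of 12 endothelial markers, against 9410–19374 CPM in the endothelial clusters. Mice 5 and 6, and to a lesser degree mouse 3, stood apart in Liver and CS for several of the 9 genes, so values without mice 5 and 6 are given where they differ.

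The genes lie at separate places of the GRCm38 genome. Hnf4a covers chr2:163506808-163572910 on the plus strand, Foxa2 lies on the same chromosome at chr2:148042877-148046969 on the minus strand, and Foxa1 at chr12:57540628-57546916 on the minus strand. Foxa3 lies at chr7:19013284-19023538 on the minus strand and Cebpa at chr7:35119293-35121928 on the plus strand. Onecut1 lies at chr9:74861921-74891781 on the plus strand, Nr5a2 at chr1:136842571-136960448 on the minus strand and Prox1 at chr1:190118035-190170714 on the minus strand. In the RefSeq promoter table of GRCm38.p6, 13 promoters of 8 of the 9 genes were found. The 250 bases before each start were searched on both strands for 1 motif of each family: CAAAGTCCA for HNF4, TGTTTAC for FOXA, TTGCNNAA for C/EBP, ATTGATT for ONECUT and CAAGGTCA for NR5A2. These motifs occurred in 0.384%, 3.17%, 9.56%, 2.61% and 1.33% of the 32851 promoters of the table outside the chromosome that was left out. The 4 promoters with a match are shown because they place motifs of the group within its own promoters, and that of Onecut1 is shown because its level differed most between mice. Each reads 5′ to 3′ on the gene's strand, with the match in capitals, which in Hnf4a, Foxa1 and Nr5a2 is the motif as read on the opposite strand, and the windows of Hnf4a and Foxa1 stop at the first annotated exon. Those of Foxa1 and Nr5a2 lie within an intron of a longer transcript of the gene, and the other 3 lie before the gene.
Hnf4a, chr2:163506607-163506807, plus strand: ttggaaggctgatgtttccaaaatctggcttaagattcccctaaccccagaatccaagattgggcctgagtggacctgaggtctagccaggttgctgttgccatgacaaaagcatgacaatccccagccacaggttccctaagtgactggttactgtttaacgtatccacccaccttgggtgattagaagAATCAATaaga
Foxa1, chr12:57546122-57546361, minus strand: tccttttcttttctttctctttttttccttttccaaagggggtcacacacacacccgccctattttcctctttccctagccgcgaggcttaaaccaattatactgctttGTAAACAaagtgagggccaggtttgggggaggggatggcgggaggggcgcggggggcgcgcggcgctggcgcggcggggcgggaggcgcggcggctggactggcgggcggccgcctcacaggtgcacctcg
Foxa2, chr2:148046970-148047219, minus strand: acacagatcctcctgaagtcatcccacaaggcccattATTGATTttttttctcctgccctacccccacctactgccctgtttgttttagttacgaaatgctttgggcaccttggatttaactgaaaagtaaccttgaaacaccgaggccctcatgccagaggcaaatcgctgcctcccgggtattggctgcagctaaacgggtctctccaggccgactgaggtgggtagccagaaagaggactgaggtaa
Nr5a2, chr1:136953631-136953880, minus strand: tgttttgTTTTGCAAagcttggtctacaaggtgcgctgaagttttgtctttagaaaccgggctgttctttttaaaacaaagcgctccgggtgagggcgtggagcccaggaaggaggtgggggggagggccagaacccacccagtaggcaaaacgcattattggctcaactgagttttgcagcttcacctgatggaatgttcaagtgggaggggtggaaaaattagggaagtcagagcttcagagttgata
Onecut1, chr9:74861671-74861920, plus strand: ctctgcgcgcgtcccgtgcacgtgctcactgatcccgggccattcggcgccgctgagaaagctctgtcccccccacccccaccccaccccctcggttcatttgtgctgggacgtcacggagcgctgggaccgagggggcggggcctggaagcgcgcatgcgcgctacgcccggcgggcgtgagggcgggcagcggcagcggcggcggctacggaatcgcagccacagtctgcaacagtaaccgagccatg
The matches began 60 bases before the start in Hnf4a (ONECUT), 141 bases before it in Foxa1 (FOXA), 213 bases before it in Foxa2 (ONECUT) and 243 bases before it in Nr5a2 (C/EBP). A match describes letters only and shows no binding.

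Levels below are CPM over hepatocyte nuclei, spliced, unspliced and ambiguous UMIs together. Changes are log2 fold changes with standard errors from edgeR's quasi-likelihood test on the 24 sums with TMM scaling, and their p-values are adjusted over 26778 genes. TMM matters for the cultured samples, whose factors were 1.24–1.57, against 0.80–1.00 in Liver and 0.74–0.92 in CS. With TMM, the median change of all genes was 0.10 between PH and Liver, 0.02 between PH and CS and 0.02 between CS and Liver. With library size alone these medians were 0.66, 0.71 and -0.11, and changes below are to be read against these medians. Differences within pools are log2 ratios of CPM without TMM, to be read against the medians with library size alone.

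Most of the group fell in culture. Between PH and Liver all 9 genes were lower, against 26.3% of all tested genes called lower and 27.4% called higher. The median change of the 9 was -2.17. The call of 1 gene, Foxa2, was lost without mouse 5, with the pool as covariate and with library size alone. Between PH and CS 8 of 9 were lower, against 23.5% of genes lower and 26.9% higher, with a median of -1.42. From Liver to CS only Foxa3 was lower and only Cebpa was higher, against 14.2% of genes lower and 8.16% higher. With library size alone, 8 of 9 remained lower between PH and Liver, 6 of 9 between PH and CS, and again 1 was lower and 1 higher between CS and Liver. The share of higher genes among all called genes moved from 51.0% to 75.7%, from 53.4% to 80.2% and from 36.5% to 19.9% in these comparisons. Every PH sample lay below every Liver sample for 4 of 9 genes (Hnf4a, Foxa3, Cebpa and Nr5a2), compared with 9.0% of all genes. The same held against CS for 2 of 9 (Cebpa and Nr5a2), compared with 6.41% of all genes. Every CS sample lay below every Liver sample for 1 of 9 (Foxa3), compared with 6.82% of all genes.

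**Figure D1:**
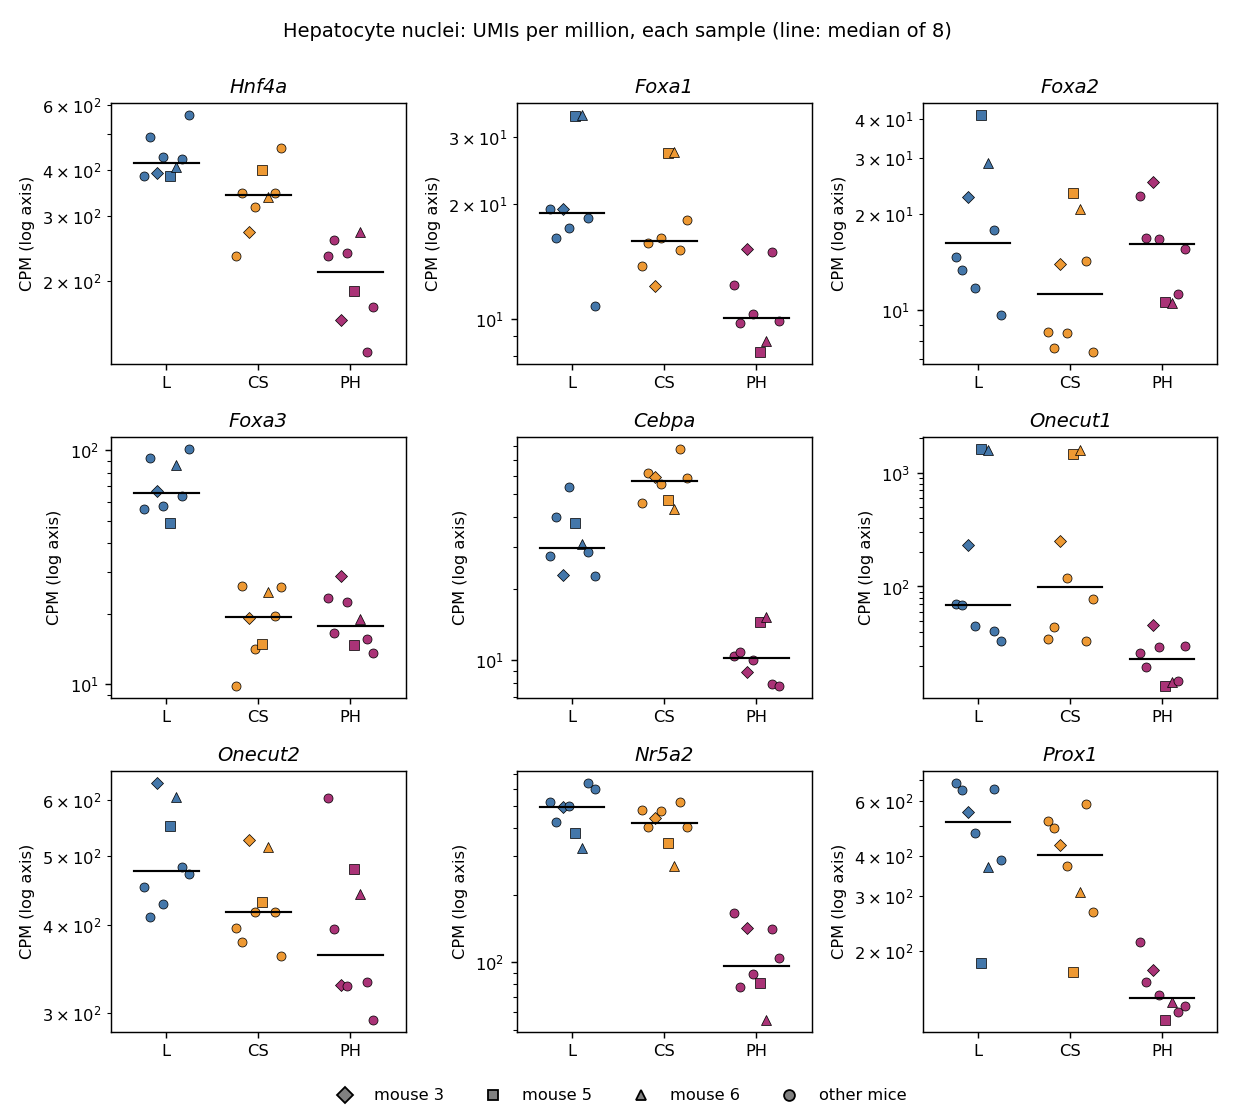
CPM (log axis) of each gene in hepatocyte nuclei of the 24 samples, by sample type (L, CS, PH), with a line at the median of 8 and separate symbols for mice 3, 5 and 6. Nr5a2 and Cebpa of all PH samples lie below all other samples, and Onecut1 of mice 5 and 6 lies at 1446–1607 CPM in Liver and CS.

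**Figure D2:**
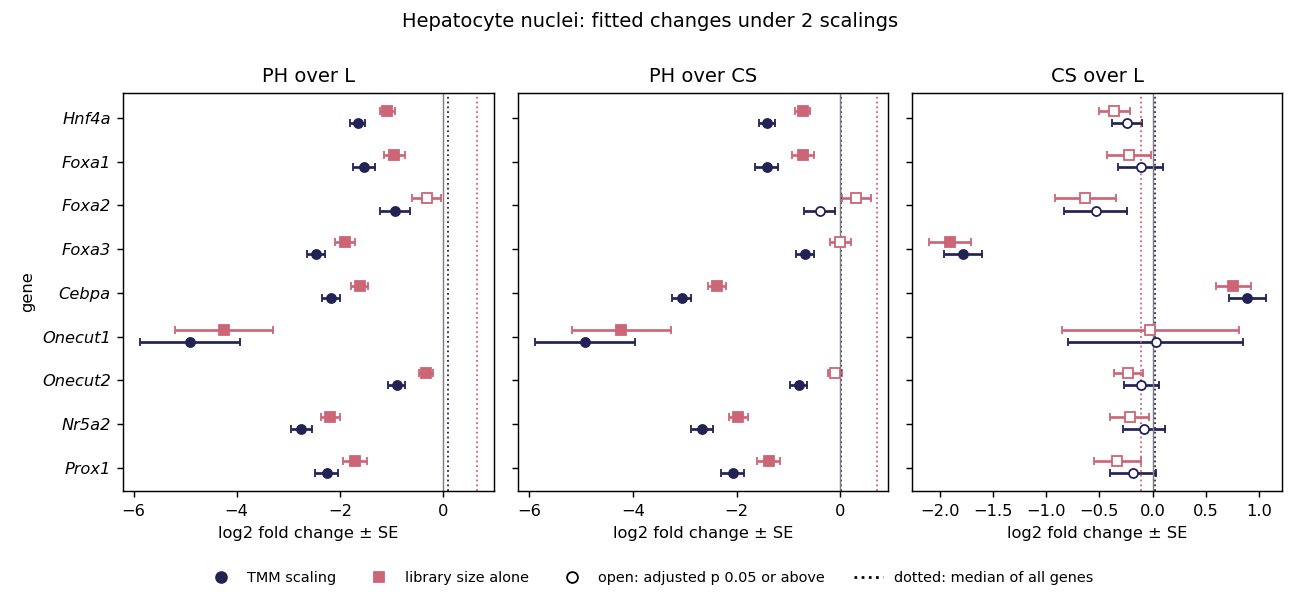
Log2 fold changes ± SE of the 9 genes in hepatocyte nuclei for the 3 comparisons, with TMM scaling (circles) and with library size alone (squares), open symbols where the adjusted p was 0.05 or above and dotted lines at the median of all genes. Foxa2 and Foxa3 between PH and CS change side with the scaling, whereas Hnf4a, Cebpa, Nr5a2 and Prox1 stay lower in PH under both.

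Hnf4a, the nuclear receptor at the centre of the network, was lower in PH than in Liver and in CS. Its level was 385–563 CPM in Liver (median 418), 234–460 CPM in CS (median 343) and 128–271 CPM in PH (median 211). All cultured samples were below all Liver samples, while cultured and freshly isolated samples overlapped. The change was -1.65 ± 0.15 between PH and Liver (adjusted p = 3.98e-11) and -1.41 ± 0.15 between PH and CS (adjusted p = 1.18e-09). Between CS and Liver it was -0.24 ± 0.14 (adjusted p = 0.26). Within pools, the log2 difference in CPM was -1.24 to -0.87 between PH and Liver (2 pools) and -0.96 to -0.02 between PH and CS (4 pools).

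The 3 FOXA genes differed from one another. Foxa3 fell at isolation: it was 48.7–101 CPM in Liver (median 65.5), 9.80–26.2 CPM in CS (median 19.3) and 13.5–28.9 CPM in PH (median 17.7). No CS sample reached the lowest Liver sample. The change between CS and Liver was -1.78 ± 0.18 (adjusted p = 8.49e-09), and within 4 pools the difference was -1.99 to -1.50. Between PH and CS the change was -0.68 ± 0.18 with TMM (adjusted p = 0.00169) and 0.01 with library size alone (adjusted p = 0.983). In CPM without TMM, the cultured level was not the lower one in 3 of 4 pools.

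Foxa1 was 10.8–34.3 CPM in Liver (median 18.9), 12.2–27.5 CPM in CS (median 16.04) and 8.18–15.2 CPM in PH (median 10.1), so its groups overlapped. It changed by -1.53 ± 0.21 between PH and Liver (adjusted p = 3.34e-07) and by -1.42 ± 0.22 between PH and CS (adjusted p = 1.84e-06). The Liver samples of mice 5 and 6 held 34.0 and 34.3 CPM, the highest of all, and without these mice the change from Liver was -1.07 (adjusted p = 2.91e-06). Within 4 pools the difference between PH and CS was -1.15 to -0.18.

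Foxa2 had the smallest change of the 3 between PH and Liver. It was 9.61–41.0 CPM in Liver (median 16.3), 7.37–23.3 CPM in CS (median 11.2) and 10.5–25.3 CPM in PH (median 16.1). The groups overlapped widely, and the 2 highest values were the Liver samples of mice 5 (41.0 CPM) and 6 (29.1 CPM). In CPM without TMM, PH lay below Liver in 3 of 8 mice. The change between PH and Liver was -0.93 ± 0.29 (adjusted p = 0.00678), but -0.33 without mice 5 and 6 (adjusted p = 0.253), -0.58 without mouse 5 alone (adjusted p = 0.0543), -0.83 with the pool as covariate (adjusted p = 0.100) and -0.32 with library size alone (adjusted p = 0.313). Between PH and CS it was -0.39 ± 0.30 (adjusted p = 0.292), and -0.45 with the pool as covariate (adjusted p = 0.299). Within pools the log2 difference in CPM without TMM was 0.12 to 1.27 between PH and CS. The cultured level was the higher one in 4 of 4 pools, where the median of all genes with library size alone was 0.71. Between PH and Liver the difference was -1.01 and 0.52 in the 2 pools that held both.

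Cebpa was the only gene of the group that rose at isolation. Its level was 22.6–53.6 CPM in Liver (median 29.8), 43.5–77.5 CPM in CS (median 56.9) and 7.79–15.2 CPM in PH (median 10.2). The PH samples lay below all others, whereas Liver and CS overlapped. The change was 0.89 ± 0.17 between CS and Liver (adjusted p = 2.12e-04), -3.06 ± 0.18 between PH and CS (adjusted p = 7.30e-15) and -2.17 ± 0.18 between PH and Liver (adjusted p = 6.35e-12). Within pools, the CS level was between -0.02 and 1.65 log2 units from that of Liver, and it was the higher one in 3 of 4 pools.

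Nr5a2 and Prox1 fell in culture, and neither passed the test between CS and Liver. Nr5a2 was 326–636 CPM in Liver (median 499), 271–525 CPM in CS (median 423) and 55.2–167 CPM in PH (median 96.4), without overlap between cultured and other samples. Its change was -2.75 ± 0.21 from Liver (adjusted p = 8.47e-13), -2.66 ± 0.21 from CS (adjusted p = 2.05e-12) and -0.08 ± 0.19 between CS and Liver (adjusted p = 0.82). Within 4 pools the difference between PH and CS was -2.26 to -1.95.

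Prox1 was 183–683 CPM in Liver (median 513), 171–588 CPM in CS (median 404) and 121–214 CPM in PH (median 141). Mouse 5 had the lowest level in all 3 sample types (183, 171 and 121 CPM), and only its Liver and CS samples reached the cultured range. The change was -2.26 ± 0.23 from Liver (adjusted p = 5.16e-10), -2.07 ± 0.23 from CS (adjusted p = 3.07e-09) and -0.19 ± 0.22 between CS and Liver (adjusted p = 0.608). Within 4 pools the difference between PH and CS was -1.71 to -0.59, and within 2 pools that between PH and Liver was -1.71 to -0.26.

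Onecut2 was lower in PH than in Liver, with a size that depended on the fit. Its call between PH and CS depended on the scaling. It was 410–634 CPM in Liver (median 477), 361–527 CPM in CS (median 417) and 294–603 CPM in PH (median 363), and all 3 groups overlapped. The change was -0.90 ± 0.17 from Liver (adjusted p = 2.48e-05) and -0.80 ± 0.17 from CS (adjusted p = 1.40e-04). With library size alone it was -0.33 (adjusted p = 0.0305) and -0.10 (adjusted p = 0.522), and with the pool as covariate it was -1.18 (adjusted p = 5.01e-05) and -1.02 (adjusted p = 1.38e-05). Within pools, the difference in CPM between PH and CS was -0.42 to 0.36, with PH the lower one in 3 of 4.

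Onecut1 was high in 3 of 8 mice before culture and low in all 8 after it. In Liver it was 1607 CPM in mouse 5 and 1566 CPM in mouse 6, 233 CPM in mouse 3, and 69.9, 68.8, 44.7, 40.5 and 32.9 CPM in mice 1, 2, 4, 7 and 8. In CS it was 1446 CPM in mouse 5, 1593 CPM in mouse 6 and 253 CPM in mouse 3, and 33.3–118 CPM in the others. The same 3 mice were therefore high before and after isolation. In PH all 8 samples held 13.4–45.7 CPM, and mice 5 and 6 (13.4 and 14.4 CPM) were the 2 lowest. UMIs of Onecut1 were found in 98.6% and 91.5% of the Liver hepatocyte nuclei of mice 5 and 6, in 79.1% of those of mouse 3, and in 15.4–36.0% of those of the other mice, at median depths of 4390.5–13996 UMIs per nucleus.

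The change of Onecut1 was -4.90 ± 0.97 from Liver (adjusted p = 6.95e-05) and -4.93 ± 0.97 from CS (adjusted p = 7.22e-05), and 0.03 ± 0.82 between CS and Liver (adjusted p = 0.988). With the mouse as replicate block the first 2 changes were -2.67 (adjusted p = 1.15e-04) and -2.85 (adjusted p = 5.72e-05), and without mice 5 and 6 they were -2.18 and -2.58. Within 4 pools the difference between PH and CS was -4.71 to -0.95, and within 2 pools that between PH and Liver was -5.41 to -0.61. The direction was the same in all of these fits, but the size rests on the 2 high mice. In PH, endothelial nuclei had a mean of 34.4 CPM of Onecut1 and hepatocyte nuclei 24.1 CPM. The part of background RNA in these levels was not tested.

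Low levels of Onecut1 moved with the pool. Pools 2, 5 and 6 held the Liver and CS samples of mice 5 and 6. In these pools the Liver samples of other mice held 44.7–69.9 CPM in hepatocyte nuclei and 46.6–70.4 CPM in endothelial nuclei. The Liver samples of mice 7 and 8, in pool 1, held 32.9–40.5 CPM in hepatocyte nuclei and 9.18–11.6 CPM in endothelial nuclei. For CS the values were 78.1–118 and 87.1–92.8 CPM in the former pools and 33.3–43.7 and 2.95–8.02 CPM in the others (without mouse 3), and for PH 29.2–45.7 and 46.4–115 CPM in the former and 13.4–25.96 and 0–27.3 CPM in the others. The part of RNA shared within a pool in these low levels was not tested.

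**Figure D3:**
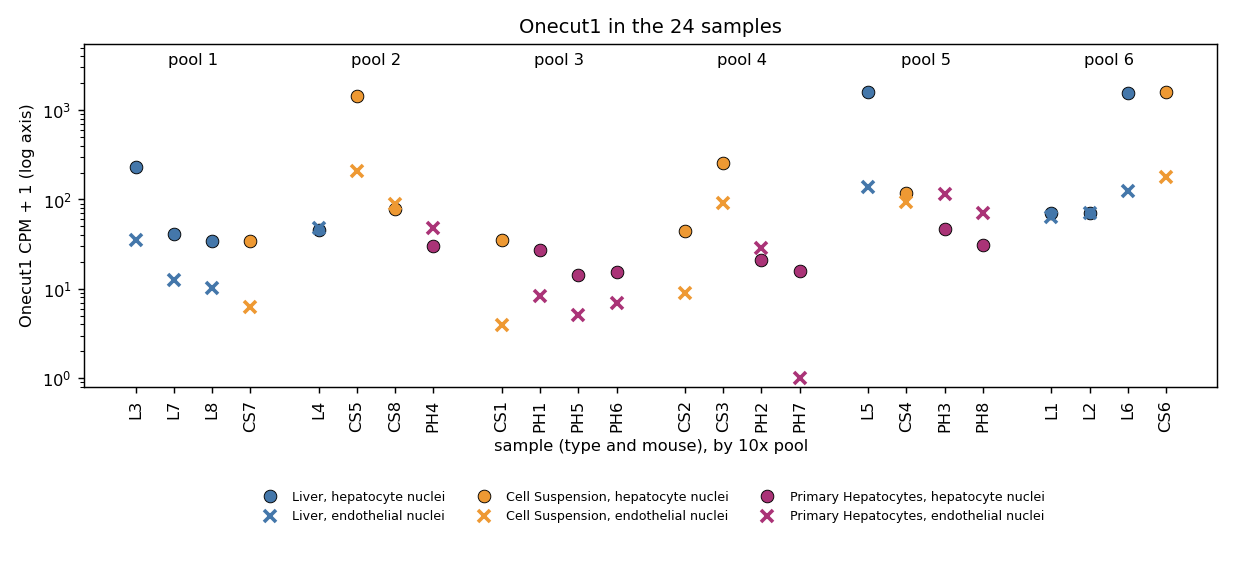
Onecut1 CPM + 1 (log axis) in hepatocyte nuclei (circles) and endothelial nuclei (crosses) of each of the 24 samples, ordered by 10x pool. Samples L5, L6, CS5 and CS6 lie at 1446–1607 CPM in hepatocyte nuclei, and the other samples of pools 2, 5 and 6 have endothelial levels close to or above their hepatocyte levels.

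The splicing state of the RNA was compared next. Fitted apart, spliced counts were lower in PH than in Liver for 9 of 9 genes (57.9% of 20548 genes were called, 5766 lower and 6140 higher). They were lower than in CS for 8 of 9 (54.7%, 4831 lower and 6399 higher). Unspliced counts, which Cebpa lacks, were lower than in Liver for 8 of 8 (53.5% of 22594 genes, 5979 lower and 6114 higher). They were lower than in CS for 7 of 8 genes (49.2%, 5186 lower and 5932 higher). Between CS and Liver, spliced counts were called for 3 genes (22.8% of all genes), lower for Foxa2 (-0.85 ± 0.29, adjusted p = 0.0302) and Foxa3 (-1.04 ± 0.19) and higher for Cebpa (0.48 ± 0.16). Unspliced counts were called for 1 gene (24.4% of all genes), Foxa3 (-1.93 ± 0.19).

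The unspliced share, unspliced UMIs out of spliced and unspliced ones, fell at isolation for 6 of 8 genes. Such falls were common: with p-values adjusted over 14736 genes (at least 1 such UMI in each sum and 10 on average), the exact permutation test called 43.0% of genes lower and 2.12% higher in CS than in Liver, and 6 of the 8 lower. Between PH and Liver it called 49.0% of genes lower and 5.50% higher, and 5 of the 8 lower and 1, Foxa1, higher. For Hnf4a it was 84.1% ± 1.9 in Liver, 72.5% ± 3.3 in CS and 70.8% ± 3.0 in PH (SD, n = 8 each), and Liver did not overlap the others (exact permutation test, adjusted p = 4.14e-04 for each). Foxa3 went from 86.1% to 70.9% and 73.6%, Onecut1 from 63.3% to 51.7% and 53.0%, and Onecut2 from 55.0% to 44.1% and 47.7%. Nr5a2, whose RNA was mostly unspliced, went from 94.0% to 91.3% and 88.3%. Prox1 fell from 66.1% to 55.4% and was 68.3% in PH, which differed from CS (exact permutation test, adjusted p = 0.00124) and not detectably from Liver (adjusted p = 0.163). Foxa1 went the other way, from 35.8% ± 3.1 to 42.7% ± 7.8 and 61.6% ± 5.9 (SD, n = 8 each), with exact permutation adjusted p of 0.0452 between CS and Liver and 6.78e-04 between PH and CS. The first of these calls was lost when any of mice 1, 2, 4, 6, 7 or 8 was left out (adjusted p = 0.0612 to 0.123), with ambiguous UMIs in the denominator, with the mouse as block (exact paired permutation test, adjusted p = 0.0703) and with adjustment over all genes (0.064). Foxa2 had 19.7%, 17.5% and 19.1%, and none of its 3 differences passed the test. These exact permutation tests of 8 samples against 8 could not go below p = 1.55e-04, and 24 were run.

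**Figure D4:**
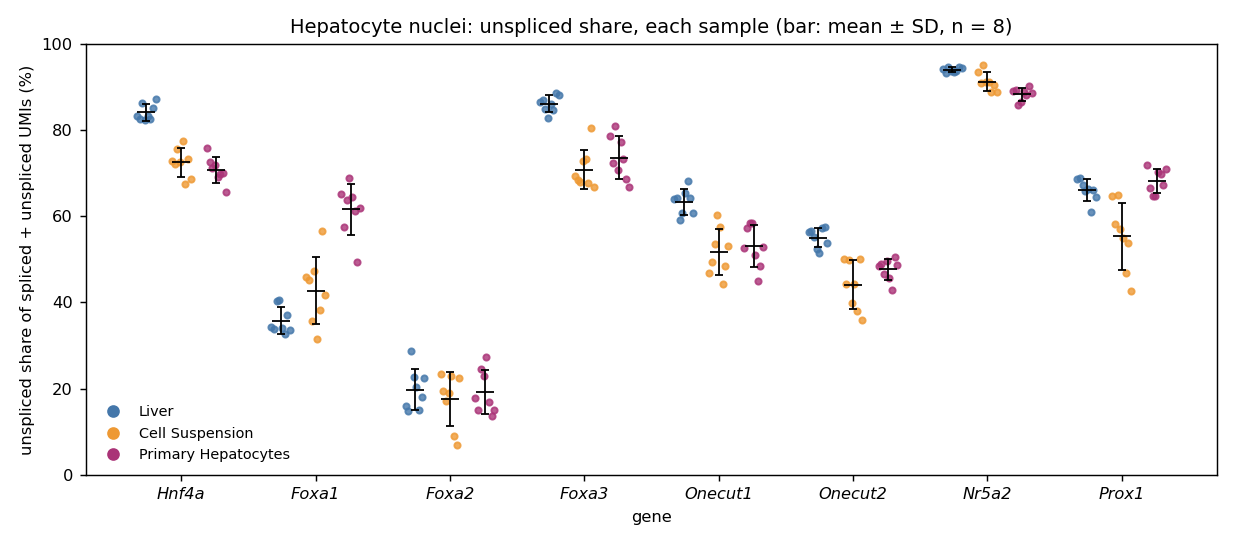
Unspliced UMIs as a percent of spliced and unspliced UMIs in hepatocyte nuclei, each sample as a point and mean ± SD (n = 8) as a bar, for the 8 genes with unspliced UMIs. Foxa1 rises from 35.8% in Liver to 61.6% in PH, while Hnf4a and Foxa3 fall between Liver and CS.

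Depth differed between sample types (median 7572.5, 3459 and 6080 UMIs per hepatocyte nucleus in Liver, CS and PH), so the share of nuclei with a UMI was also computed at 1000 UMIs per nucleus, which left out 587, 932 and 293 shallower nuclei. At this depth Nr5a2 was found in 34.8%, 30.2% and 8.58% of hepatocyte nuclei (80.1%, 63.0% and 33.5% unthinned) and Prox1 in 35.2%, 29.8% and 11.5%. Hnf4a was found in 33.8%, 27.8% and 17.5% of nuclei, and its share also fell between Liver and CS (exact permutation test, adjusted p = 0.00886). Cebpa rose from 3.34% to 5.80% at isolation and fell to 1.15% in culture, while Foxa3 was in 7.08%, 1.94% and 1.84%, Onecut2 in 36.3%, 32.9% and 25.9%, and Foxa1 in 2.16%, 1.99% and 1.13%. Foxa2 was in 2.10%, 1.44% and 1.70%, and none of its differences passed the unpaired exact permutation test. With the mouse as block, 4 further shares were called lower in CS than in Liver. They were those of Foxa2 and Prox1, lower in 8 of 8 mice (exact paired permutation test, adjusted p = 0.0132, against 0.179 and 0.315 unpaired), and those of Onecut2 and Nr5a2, lower in 7 of 8 mice (0.0288 and 0.0211, against 0.149 for each unpaired). When the same paired test was adjusted over 26778 genes, 4 of the 9 were lower (Hnf4a, Foxa2, Foxa3 and Prox1) and 1 higher (Cebpa), each at an adjusted p of 0.0396, against 16.6% of genes lower and 3.10% higher, and Onecut2 and Nr5a2 did not pass (exact paired permutation test, adjusted p = 0.0847 and 0.0624).

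The same shares were computed in endothelial nuclei (median 3141.5, 1506.5 and 1377 UMIs) for comparison. Free RNA in droplets can also give UMIs, and its part in either cell type was not tested. At 1000 UMIs, Hnf4a was found in 4.07%, 4.68% and 5.05% of them and Prox1 in 4.72%, 4.48% and 5.47%. Onecut2 was in 5.38%, 6.37% and 8.64%, Foxa1 in 0.341%, 0.314% and 0.511%, Foxa2 in 0.352%, 0.343% and 0.436%, Foxa3 in 1.01%, 0.736% and 0.678%, and Cebpa in 0.567%, 1.16% and 0.256% of endothelial nuclei. These means all lay below the mean shares of the same genes in hepatocyte nuclei. Endothelial nuclei, before the limit of 1000 UMIs, numbered 161–560 per Liver sample, 42–254 per CS sample and 29–510 per PH sample. Low levels in single samples are therefore uncertain: endothelial CPM was 0 to 140% of hepatocyte CPM for Foxa1 in PH and 0 to 169% for Foxa2 in CS. Onecut1 in PH was in 2.53% of hepatocyte nuclei and 4.05% of endothelial nuclei, and its hepatocyte CPM was above the endothelial CPM in 4 of 8 PH samples (mice 1, 5, 6 and 7). Nr5a2 was in 21.8%, 21.5% and 14.6% of endothelial nuclei, but in 6.23% of Kupffer nuclei in Liver, and its PH share in hepatocyte nuclei was below the endothelial one.

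Nr5a2 was also measured in endothelial nuclei, at a larger part of its hepatocyte level than the hepatocyte markers. Its endothelial level was 276 ± 26.7 CPM in Liver, 295 ± 42.7 CPM in CS and 168 ± 56.9 CPM in PH (SD, n = 8 each). That was 58.3%, 73.5% and 168% of the hepatocyte level of the same sample, whereas 10 hepatocyte markers together had 23.0%, 23.1% and 75.1%. The Nr5a2 percentage was above that of the markers in 8 of 8, 8 of 8 and 7 of 8 samples (exact paired permutation test, adjusted p = 0.0301, 0.0301 and 0.0422). In PH, Nr5a2 was lower in hepatocyte than in endothelial nuclei in 7 of 8 samples, a log2 difference of -0.66 ± 0.54 (SD, n = 8; exact paired permutation test, adjusted p = 0.0192). For the other 8 genes the hepatocyte level was the higher one in each sample type, except for Onecut1 in PH, for which the exact paired permutation test gave an adjusted p of 0.422. In Liver, the endothelial percentages of Hnf4a, Onecut2 and Prox1 (12.9%, 14.3% and 15.6%) were below that of the markers in 8 of 8 samples (exact paired permutation test, adjusted p = 0.0301 for each). In CS they were 20.7%, 22.9% and 18.9%, and the difference from the markers did not pass (adjusted p = 0.264, 0.953 and 0.211 in the same exact test). In PH they were 37.6%, 33.0% and 41.8%, below the markers again (exact paired permutation test, adjusted p = 0.0301, 0.0301 and 0.0422), and Foxa3 in Liver was also below them (14.6%, adjusted p = 0.0422).

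**Figure D5:**
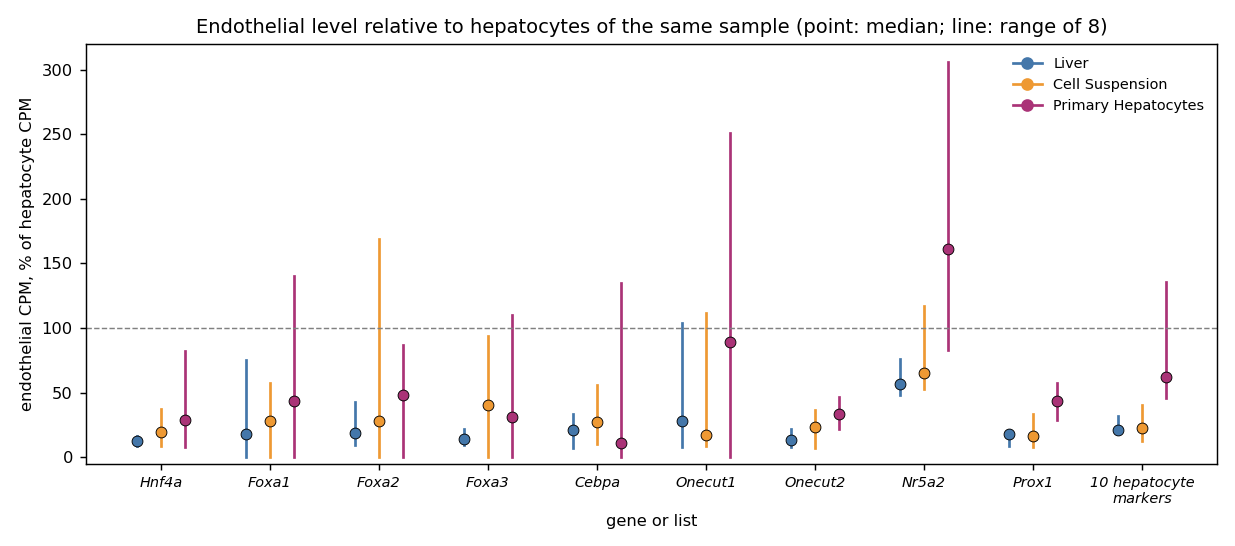
Endothelial CPM as a percent of hepatocyte CPM of the same sample, for the 9 genes and the sum of 10 hepatocyte markers, with points at the median and lines over the range of 8 samples, and a dashed line at equal levels. Nr5a2 lies above the markers in all Liver and CS samples and has a median of 161% in PH.

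In the fit of endothelial nuclei, Nr5a2 was lower in PH than in Liver (-0.96 ± 0.15, adjusted p = 7.39e-07) and Onecut2 was higher (0.69 ± 0.21, adjusted p = 0.00867), against 18.3% of genes lower and 15.4% higher. From CS, Nr5a2 (-1.09 ± 0.15, adjusted p = 2.41e-07) and Cebpa (-1.95 ± 0.49, adjusted p = 0.00254) were lower, against 10.6% of genes lower and 9.37% higher. Between CS and Liver edgeR called 0 of 9 genes, with 1 at an unadjusted p under 0.05 (Cebpa), against 1.88% of genes lower and 2.03% higher. The Onecut2 call was lost with the pool as covariate (adjusted p = 0.162) and without mouse 6 (adjusted p = 0.0636). The hepatocyte change minus the endothelial change, in log2(CPM + 1), passed the exact permutation test below 0 for 4 of 9 genes between PH and Liver (adjusted over 18212 genes, of which 9.62% passed below 0 and 28.7% above it) and for 2 of 9 between PH and CS (6.56% and 17%). Hepatocyte nuclei made up 75.7% of all nuclei in Liver, 88.6% in CS and 88.5% in PH. In the sums over all nuclei, 8 of 9 genes were lower in PH than in Liver (55.7% of 27269 genes called, 7391 lower and 7793 higher). Against CS, 8 of 9 were lower in PH (50.8%, 6376 lower and 7470 higher). Foxa3 was lower and Cebpa higher in CS than in Liver (20.7%, 3447 lower and 2185 higher). Foxa2 was the gene not called between PH and Liver.

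Within the lobule, Onecut2 was higher on the pericentral side. Hepatocyte nuclei of each Liver and CS sample were ordered by the ratio of 10 pericentral to 10 periportal marker genes, none of them among the 9, and the highest 1 in 3 was compared with the lowest 1 in 3. Onecut2 was 554 CPM on the pericentral and 447 CPM on the periportal side in Liver, a log2 difference of 0.32 ± 0.10 (SD, n = 8), and 481 and 394 CPM in CS, a difference of 0.29 ± 0.10. It was higher pericentrally in 8 of 8 mice in both. Onecut1 was lower on the pericentral side in 8 of 8 Liver samples (-0.49 ± 0.33). For each of these 3 results the exact paired permutation test gave an adjusted p of 0.0469 over 18 tests, at the smallest p it allows (0.00781). Hnf4a was lower on the pericentral side in 7 of 8 mice in Liver (-0.22 ± 0.17) and in CS (-0.14 ± 0.14), which did not pass (exact paired permutation test, adjusted p = 0.0703). Zonation was common: over 8722 genes of at least 10 CPM other than the markers, the same exact paired permutation test called 15.8% higher and 17.3% lower on the pericentral side in Liver, and 8.92% and 10.9% in CS. Adjusted over these genes, 1 of the 9 was higher (Onecut2) and 2 lower (Onecut1 and Cebpa, which was -0.21 ± 0.19 with an adjusted p of 0.0471) in Liver, and 1 higher (Onecut2) and 0 lower in CS, where 3 (Hnf4a, Cebpa and Foxa3) had a negative difference at an unadjusted exact p of 0.0234, 0.0313 and 0.0469. Without Cyp2e1 and Cyp2f2 among the markers, Hnf4a (-0.18) and Cebpa (-0.26) in Liver passed as well (exact paired permutation test, adjusted p = 0.0281 for each). When the nuclei were divided into a higher and a lower part of equal size, 0 of 18 exact permutation tests passed at the adjusted threshold, and the 3 differences were 0.26, 0.27 and -0.36 (adjusted p = 0.0703 for each).

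Mice kept their rank through isolation for some genes. Over the 8 mice, log2(CPM + 1) of Prox1 in CS followed that in Liver (Pearson r = 0.98, permutation adjusted p = 0.00327; Spearman rho = 0.95, adjusted p = 0.0137), and r was 0.97 without the 2 mice farthest from the median. Foxa2 had r = 0.96 and rho = 0.95 (the same permutation adjusted p-values) and 0.88 without the 2 farthest mice, and Foxa3 had r = 0.86 and rho = 0.88 (permutation adjusted p = 0.0329 and 0.0435) and 0.78 without them. For Nr5a2 and Onecut2 (r = 0.87 for each, permutation adjusted p = 0.0329), rho did not pass (adjusted p = 0.0514 and 0.126) and r was 0.47 for each without the 2 farthest mice, so that these relations rest on those mice. Between CS and PH, Nr5a2 had r = 0.82 (permutation adjusted p = 0.0356) and rho = 0.81 (adjusted p = 0.0871), with 0.61 without the 2 farthest mice. Foxa1 had r = -0.83 (permutation adjusted p = 0.0568) and rho = -0.88 (adjusted p = 0.0435), with -0.77 without them. No relation of PH with Liver passed among the 24 relations computed. No correlation is given for Onecut1, whose mice fall into separate clusters, and none could be computed within a pool, since no pool held both samples of more than 1 mouse.

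Most genes of 2 further lists, chosen with earlier results of these data known, were also lower in culture. The lists, of liver regulators and hepatocyte products, share 1 nuclear receptor gene. Of 44 further liver regulators, 35 were lower and 3 higher in PH than in Liver, against 26.3% of all genes lower and 27.4% higher. Their median change was -1.38, and with library size alone 27 were lower and 10 higher. The 3 with the lowest adjusted p were Creb3l3 (-3.78 ± 0.15), a factor of fasting genes, Nr1h4 (-3.48 ± 0.15), which encodes the bile acid receptor FXR, and Nr2f2 (-3.19 ± 0.14). Those higher were Cebpd (3.07 ± 0.22), a relative of Cebpa induced in the acute phase, Gata6 (0.77 ± 0.20) and Cebpg (0.51 ± 0.14). Cebpd rose at isolation (2.94 ± 0.22 between CS and Liver). At isolation, 6 of the 44 were lower and 7 higher, with a median of 0.00, against the 14.2% of all genes lower and 8.16% higher given above. Of 38 genes of hepatocyte products, 36 were lower and 1 higher (Hpx, 1.05 ± 0.32) in PH than in Liver, with a median of -3.15, while between CS and Liver 2 were lower and 13 higher, with a median of 0.17. The lowest adjusted p-values were those of Slco1b2 (-6.09 ± 0.21), an organic anion transporter, Serpinc1 (-4.10 ± 0.15), which encodes antithrombin, and Otc (-5.60 ± 0.22), an enzyme of the urea cycle.

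The 3 noncoding partners of a list that were in the matrices by name fell further than their neighbour genes by size. Hnf4aos, which overlaps Hnf4a over 34.9 kb on the other strand, was 40.6–88.5 CPM in Liver, 26.98–66.8 CPM in CS and 1.13–3.65 CPM in PH (-5.25 ± 0.24 from Liver). Prox1os, which overlaps Prox1 over 419 bases on the other strand, went from 151–507 CPM in Liver to 20.1–28.7 CPM in PH (-4.45 ± 0.23). 9030622O22Rik, which begins 2.67 kb downstream of Foxa2 on the same strand, went from 1431–3507 CPM in Liver to 74.9–132 CPM in PH (-4.999 ± 0.28). Gm28172, outside the list, lies within Prox1 on the other strand. It went from 8.23–30.3 CPM in Liver to 3.24–8.57 CPM in PH, where Prox1 was 183–683 and 121–214 CPM. The difference between the change of each RNA and that of its neighbour was not tested.

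For each gene, the 3 genes with the most similar level over the 24 sums (Pearson r of log2(CPM + 1), among 8235 genes of at least 10 CPM) are given as a description, since the sums share mice, pools and scale. They were Qprt, Klf15 and Ahcy for Hnf4a (r = 0.91–0.94), Nrep, Ttc6 and Tpcn1 for Foxa1 (0.89–0.91), Fam3c, Gpr108 and Rprd1b for Foxa2 (0.82–0.83), and Zfp444, Zfyve21 and Sdhc for Foxa3 (0.91–0.93). They were Sephs2, Cyp2d10 and Klf10 for Cebpa (r = 0.96 for each), Tacc1, Xbp1 and Scp2 for Onecut1 (0.95–0.98), and Ppp4r4, Rapgef4os3 and Rapgef4 for Onecut2 (0.72–0.84). For Nr5a2 they were Tcf7l2, Zfhx4 and St3gal3 (0.97–0.98), and for Prox1 Pctp, Taok3 and Kif13b (r = 0.96 for each). Klf10 had means of 79.9 CPM in Liver, 181 CPM in CS and 9.64 CPM in PH, the order seen for Cebpa.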

How the data were processed

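Nuclei of 24 samples were sequenced in 6 pools as 3′ libraries. The authors demultiplexed with bcl2fastq 2.19.0, counted with Salmon Alevin and Alevin-fry against GRCm38, assigned hashtags with mclust and removed doublets with scDblFinder. The deposited matrices hold raw counts (UMIs), spliced, unspliced and ambiguous. The deposited table of nuclei gives counts per nucleus and labels. All labelled nuclei were kept. The hashtag CD2 was taken for CS of mouse 2. Clusters were the authors', as were the names of the types, except that their cultured clusters were divided here by marker lists. Each took the type whose markers had the largest summed CPM, among hepatocytes (5 clusters), endothelial cells (1) and stellate cells (1). No other type was tried for these clusters. All cultured cell types rest on this division.

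UMIs were summed per sample and cell type. Genes with at least 10 counts over the 24 sums entered a quasi-likelihood test (edgeR 4.0.16, R 4.3.3, TMM, sample type as the only term, Benjamini-Hochberg threshold 0.05). The term and the count filter follow the study, which used DESeq2 after removing outlying cells. DESeq2 1.42.0, other scalings and filters, the pool, the mouse as block, and leaving out mice were tried. Shares were compared with exact two-sided permutation tests in Python 3.11.15 and scipy 1.17.1. On simulated counts for Primary Hepatocytes over Liver, 92–96% of genes changed 2-fold were recovered in hepatocyte nuclei (26778 genes) and 56–60% in endothelial nuclei (18279 genes). There were 13 and 8 false calls. The simulation changed 50 genes of each fold size, up and down alike, left the lowest genes unchanged and had no pool or mouse effect. It therefore cannot test the scaling or the lowest genes. Samples of 1 number were taken to come from the same mouse. The study's methods describe how all sample types were taken from a liver, but not how the numbers match. Deviations from the group means correlated between Liver and Cell Suspension of the same number at 0.34 to 0.85, and between Primary Hepatocytes and the others at -0.17 to 0.13. The pairing of Primary Hepatocytes therefore rests on the numbers alone.

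The genes and lists were chosen with earlier results of these data known. Named genes are the 9, of each list the 3 with the lowest adjusted p in each direction between Liver and Primary Hepatocytes, and the 3 most similar genes of each of the 9. Gm28172 and Gm16551 were named besides these. Of the list of 10 noncoding partners, 3 are in the matrices by name. Gene positions are from GENCODE vM21. Position and sequence of 1 gene are not reported here. Intervals cover counting error only.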

Additional observations from a re-analysis of the deposited data

Results flagged for a closer look

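The change between sample types differed between hepatocyte and endothelial nuclei for 4 genes (log2(CPM + 1), hepatocyte minus endothelial change, exact permutation test of the within-sample differences, 8 samples against 8, adjusted over 27 tests). Between Primary Hepatocytes and Liver the difference was -1.26 for Hnf4a (adjusted p = 0.0217), -1.22 for Onecut2 (0.0014), -1.45 for Nr5a2 (0.0014) and -1.46 for Prox1 (0.0014). Between Primary Hepatocytes and Cell Suspension it was -1.15 for Nr5a2 (0.00315) and -1.32 for Prox1 (0.0042). Of 18212 genes tested alike, with p-values adjusted over all of them, 9.62% and 6.56% passed with a difference below 0 in these comparisons and 28.7% and 17% with one above 0. Onecut2 went from 504 to 400 CPM in hepatocyte nuclei and from 69.8 to 128 CPM in endothelial nuclei between Liver and Primary Hepatocytes, and Prox1 from 495 to 151 CPM and from 73.1 to 63.3 CPM. The 10 hepatocyte markers together were 3487 ± 955 CPM in endothelial nuclei in Liver and 3534 ± 1098 CPM in Primary Hepatocytes (SD, n = 8 each), which was 23.0% and 75.1% of their hepatocyte level. The part of hepatocyte RNA in the endothelial values was not tested.

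In Cell Suspension the unspliced share of Foxa3 was 80.5% in mouse 7, apart from the 7 other samples. This sample had the fewest spliced and unspliced UMIs of Foxa3, 33 of 41 being unspliced (95% Wilson interval 66.0% to 89.8%, counting error only). It was the only flag in 51 groups examined, of which chance flags about 1 in 20.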

How the results depend on the processing

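Between PH and Liver, 9 genes were lower in hepatocyte nuclei under 17 of 23 alternatives, 8 under 5 and 7 under 1. Between PH and CS, 8 were lower under 20, 7 under 1 and 6 under 2. Unspliced counts, with 8 genes tested, are among these with 8 and 7 lower. Between CS and Liver, 1 was lower and 1 higher under 20. The mouse as replicate block changed no edgeR call of the 9 genes and, of the called changes, moved those of Onecut1 by over 1.5 times (-2.67 and -2.85). In tests of shares, added after seeing the data, it gave 4 further calls of the detected share between CS and Liver (Foxa2, Onecut2, Nr5a2 and Prox1, of which Foxa2 and Prox1 passed with adjustment over all genes) and lost that of the unspliced share of Foxa1. Leaving out clusters of under 1000 median UMIs removed none. A limit of 2000, library size alone and the removal of mice 5 and 6 together were chosen after seeing the data. The smallest sum, 2104087 UMIs, was in CS.

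Foxa2 between PH and Liver was -0.83 with the pool as covariate, -0.33 without mice 5 and 6, -0.32 with library size alone and -1.09 to -0.58 with 1 mouse left out, and was no longer called in the first 3 and without mouse 5. Between PH and CS, Foxa2 was 0.13 without mice 5 and 6 and 0.31 with library size alone, which also gave Foxa3 0.0063 and Onecut2 -0.10. The cause was not tested. Requiring a log2 fold change above 1 left 8979, 8364 and 2079 genes in the comparisons PH with Liver, PH with CS and CS with Liver, and took out Foxa2 (-0.93) and Onecut2 (-0.90) in the first, Foxa3 (-0.68) and Onecut2 (-0.80) in the second and Cebpa (0.89) in the third, where 0 genes of the group were then higher.

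Between CS and Liver, the following values went to the other side of 0 without a call. Thinning all samples to the smallest sum gave Foxa1 0.016, Onecut2 0.0077 and Nr5a2 0.0057, with 3401 genes called in hepatocyte nuclei and 3307 in all nuclei. Spliced counts gave Hnf4a 0.18 and Nr5a2 0.032, and called 2 genes lower (Foxa2 at -0.85 was added). Unspliced counts gave Foxa1 0.20, Onecut1 -0.21 and Nr5a2 0.015, and called 0 higher, Cebpa not being measured. Foxa1 was 0.0012 without mice 5 and 6. Onecut1 was -0.087 with the pool as covariate, -0.023 with library size alone and -0.0027 to 0.16 with 1 mouse left out.

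In endothelial nuclei the pool as covariate left 3268 genes called between PH and Liver, with 0 of the group higher, and 334 between CS and Liver. With 1 mouse left out, 433 to 765 genes were called between CS and Liver with 0 to 1 of the group higher, and between PH and Liver 0 to 1 were higher and 1 to 2 lower. The unspliced share of Foxa2 differed between PH and Liver by -1.69 to 0.358 percentage points with 1 mouse left out. The detected share of Onecut1 at 2000 UMIs differed by 0.229 points between CS and Liver. That of Onecut2 at 500 UMIs differed by -2.89 points between PH and CS, no longer called (exact permutation test, adjusted p = 0.0781). Along the lobule in CS, Nr5a2 was -0.038 without Cyp2e1 and Cyp2f2 and Prox1 was 0.011 with nuclei divided in equal parts. These settings gave 5 (Hnf4a and Cebpa in Liver were added) and 0 called tests of 18, against 3.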

Other observations

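The cultured hepatocyte clusters differed in these genes, given as a description because the clusters were made from the same nuclei. Over the 8 Primary Hepatocytes samples, cluster 0 held a median of 147 CPM of Nr5a2, 191 CPM of Prox1 and 537 CPM of Onecut2. Cluster 1 held 53.0, 135 and 248 CPM, and cluster 17 held 30.6, 28.9 and 285 CPM. Clusters 8 and 14 lay between clusters 0 and 17 for Nr5a2 (73.7 and 70.3 CPM) and Prox1 (115 and 67.6 CPM). Cluster 8 also held at least 50 nuclei in 5 CS samples (median 172 CPM of Nr5a2) and 1 Liver sample. These nuclei entered the CS and Liver sums. Cebpa was highest in cluster 17 (37.6 CPM, range 28.8–56.7), against 6.11 CPM in cluster 0 and 10.1 CPM in cluster 1. Over all 5 clusters the medians of Hnf4a ran from 117 CPM in cluster 14 to 223 CPM in cluster 1.

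Among nuclei annotated as biliary, cluster 30 (127 nuclei, 6822 CPM of the bile duct gene Pkhd1) held 385 CPM of Onecut1 (95% Poisson interval 323–456), 1052 CPM of Onecut2 (948–1166), 473 CPM of Nr5a2 (404–551) and 531 CPM of Prox1 (457–612), with 68.5 CPM of Hnf4a (43.9–102). Cluster 28 (158 nuclei), which held 121 CPM of the mesothelial gene Msln and 34.1 CPM of Pkhd1, had 36.0 CPM of Onecut1 (21.7–56.2) and 28.4 CPM of Onecut2 (15.9–46.9). Each cluster pools samples, so there is no replicate and no test.

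Gm16551, which lies just before Onecut1 on the same strand and was chosen after its values were seen, was high in the same mice. In Liver it was 81.0 CPM in mouse 5, 68.0 CPM in mouse 6 and 43.2 CPM in mouse 3, and 3.17–6.69 CPM in the other mice. In Primary Hepatocytes it was 0.57–1.72 CPM in all 8.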
